A study of Drosophila melanogaster with 4 samples.

Results

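The cytosolic ribosomal protein (RP) genes encode the proteins of the large and the small subunit of the ribosomes that translate nuclear messages. They were taken as every symbol listed in all 4 libraries that begins with RpL, RpS or RpLP followed by a digit, plus *sta* (*stubarista*, the small-subunit protein SA). The rule gave 87 of the 7845 genes listed in all libraries, 51 of the large and 36 of the small subunit. The cells came from wing imaginal discs of *Drosophila melanogaster* larvae of genotype scrib-/-FRT82B, bred from scrib[1]FRT82B/TM6B parents and dissociated at 4, 5, 8 and 14 days after egg laying. *scrib* encodes a scaffold protein of apicobasal polarity, and discs without it grow into tumors over a prolonged larval life. Every group carried the same mutant genotype, no control discs were analysed here, and each age had 1 single-cell library made with the 10x method, so no test between ages was possible and no p-value is given. Age cannot be told apart from the library, its preparation or the animals it came from.

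A ribosome holds its proteins in fixed proportion to ribosomal RNA, and growing cells spend much of their transcription and translation on making them. In *Drosophila*, loss of 1 copy of most RP genes gives the dominant *Minute* phenotype of slow development and thin bristles, and *Minute* cells in a disc are eliminated when they lie beside normal ones. RP messages are short and abundant, and those of most animals are controlled together in response to growth signals.

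Each value below is a count of unique molecular identifiers (UMIs), each marking 1 RNA molecule captured in a cell, per 10000 UMIs of that cell, averaged over the cells of a library, and is called a level. A level is not divided by gene length, because a molecule is counted once whatever its length. Changes are log2 ratios of levels. A change is counted as large where it is at least 0.32 log2 units in either direction, a size and not a test. There were 3785, 6457, 3104 and 1110 cells on days 4, 5, 8 and 14, with median UMIs per cell between 18298.5 and 23326. Their lowest UMIs per cell were 7747, 8447, 12859 and 14609, so the shallow cells present at the early ages were not in the later libraries. 107 cell barcodes were found in more than 1 library, and leaving out the cells that carried them gave a day 14 minus day 4 difference in RP share of -8.65 percentage points, against -8.67 with all cells. All 8 epithelial disc markers were listed and their summed level was 10.5, 10.3, 12.9 and 17.4 at the 4 ages. The 7 myoblast markers summed to 0.398, 0.494, 0.628 and 0.590, no hemocyte or fat body marker was listed in all libraries, and the 2 listed germline markers summed to at most 0.00715. Sums for trachea (4 of 5 markers listed) were 7.04, 6.53, 7.69 and 9.77, nearly all of it from *verm* and *serp*, while *trh* and *btl* had levels of 0.051 and 0.017 on day 14 and of 0.0032 and 0.00063 on day 4. Sums for neurons or glia (3 of 5 listed) were 0.309, 0.327, 0.309 and 0.475. Epithelial, tracheal and neural sums were thus highest on day 14, the age with the lowest RP share, and their part in the results was not tested.

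RP genes made up about as many UMIs as the rest of the transcriptome in the younger discs and clearly fewer on day 14. The mean share of a cell's UMIs was 50.1% ± 5.67, 49.1% ± 5.50, 48.4% ± 4.77 and 41.5% ± 5.23 (SD over cells) on days 4, 5, 8 and 14. Most of the difference lay between the 2 last ages. Over the summed UMIs of a library the share was 41.4% on day 14 (exact binomial 95% interval 41.42 to 41.46) and 49.2% on day 4 (49.17 to 49.19). These intervals cover counting error only. The number of RP molecules captured per cell was lower as well, with median RP UMIs per cell of 11636, 9450, 8867 and 8026.5 on days 4, 5, 8 and 14. The median of all other UMIs per cell was 11658, 9702, 9404 and 11249.5 at these ages. Between day 8 and day 14, where most of the difference in share lay, the RP median was lower and the median of other UMIs was higher. The UMIs captured per cell also depend on the library, and this was not tested.

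**Figure D1:**
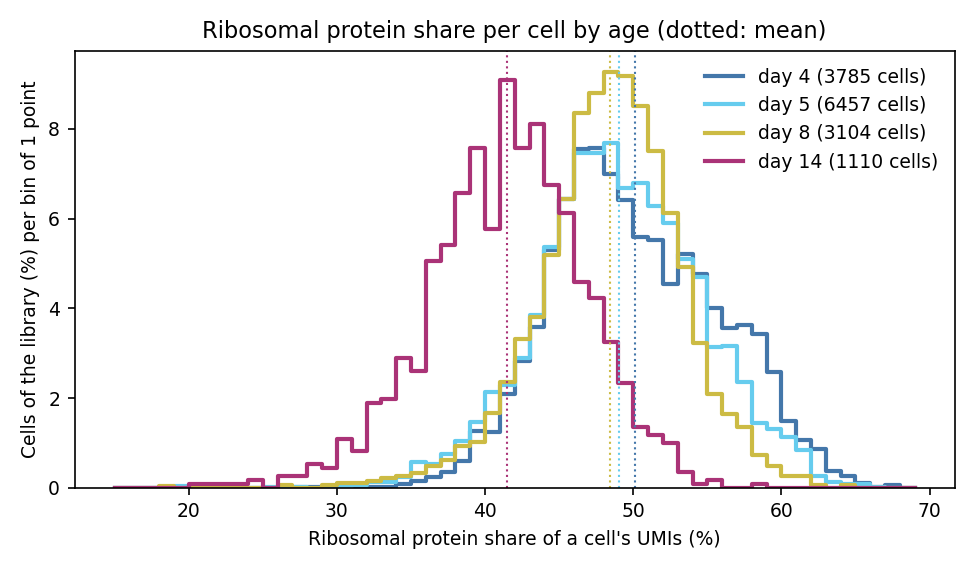
Distribution over cells of the RP share of a cell's UMIs (x axis, %) in each library, as the percent of the library's cells per bin of 1 percentage point (y axis). Dotted lines mark the means of 50.1, 49.1, 48.4 and 41.5% on days 4, 5, 8 and 14, and the day 14 curve lies to the left of the other 3.

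The distributions of the oldest and the youngest cells overlapped, with few cells of either past the median of the other. Shares ran from 20.7 to 59.0% on day 14 and from 27.1 to 67.7% on day 4. Of the day 14 cells, 4.95% lay above the day 4 median of 49.6%, and of the day 4 cells 5.31% lay below the day 14 median of 41.6%. Cells with an RP share under 35% made up 0.238%, 0.666%, 0.999% and 10.7% of the 4 libraries in order of age, and cells above 50% made up 47.1%, 42.7%, 37.2% and 4.23%. The SD over cells was far above the 0.348 to 0.373 percentage points that counting UMIs alone would give.

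At the early ages cells with more UMIs had a lower RP share, and on day 14 they hardly did. Pearson's r between share and total UMIs over the cells of a library was -0.44, -0.37, -0.23 and -0.02 on days 4, 5, 8 and 14. The share is a part of the total, so this is a description. The most genes found in a cell were 3998, 3996, 3995 and 3988 at these ages, with medians of 3034, 2780, 2819 and 3176.5. Cells with more genes may thus have been left out of the deposited data. The part of such a ceiling in the relation of share to depth was not tested. With the cells of a library divided by depth into 5 equal bins, the mean share from the shallowest to the deepest was 53.4, 52.5, 50.3, 47.9 and 46.6% on day 4, and between 41.0 and 42.3% in every bin on day 14. The deepest bin of day 4 therefore still lay above every bin of day 14. Among cells with at least 15000 UMIs the mean share was 41.4% on day 14 and 49.4% on day 4.

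The 2 subunits kept their proportion. Large-subunit genes gave 59.1%, 58.7%, 58.8% and 59.3% of RP UMIs on days 4, 5, 8 and 14. Between cells this proportion varied with an SD of 0.889 percentage points on day 14 and 0.604 on day 4, where counting alone would give 0.553 on day 14 and 0.485 on day 4. Between day 14 and day 4 the median log2 ratio was -0.29 for large-subunit and -0.30 for small-subunit genes.

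Of the 87 genes, 84 had a mean level over the libraries of at least 0.5 per 10000, and 2064 of all genes passed the same minimum. Most were lower on day 14 than on day 4, by a modest amount, and they did not move as a block. 75 of the 84 were lower, against 42.5% of all genes, and 38 (45.2%) were lower by at least 0.32 log2 units, against 23.4% of all genes. The 49 other genes at 10 or more per 10000, a level that 80 RP genes reached, were closer. Of these 49, 57.1% were lower and 36.7% were lower by at least 0.32 log2 units. Only 1 RP gene, *RpL24-like*, was higher by that much, against 36.9% of all genes. The median log2 ratio was -0.29 for the RP genes (lowest -0.85, highest 0.35) and 0.10 for all genes. The log2 ratios of RP genes had an interquartile range of 0.25, and those of all genes 0.88. Since RP genes hold nearly as many UMIs as all others together, a lower RP share raises the levels of the rest by construction. With RP UMIs left out of the scaling the median of all genes was -0.12 and that of RP genes -0.54. On that scaling 83 RP genes were lower, against 58.6% of all genes, and 71 were lower by at least 0.32 log2 units, against 36.9% of all genes. In both scalings 82 of the 84 lay below the median of all genes, the exceptions being *RpL24-like* and *RpL37a*. On pooled UMI sums 7 lay above it, these 2 with *RpL22*, *RpL3*, *RpL31*, *RpL40* and *RpS29*, and in cells with at least 15000 UMIs 5 did, these 2 with *RpL31*, *RpL40* and *RpS29*. Counting half-widths (95%) of the 84 log2 ratios ran from 0.0066 to 0.057, so 83 of the changes were larger than their half-width, against 92.1% of all genes. Counting error is not the error between animals, which cannot be had from 1 library per age.

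**Figure D2:**
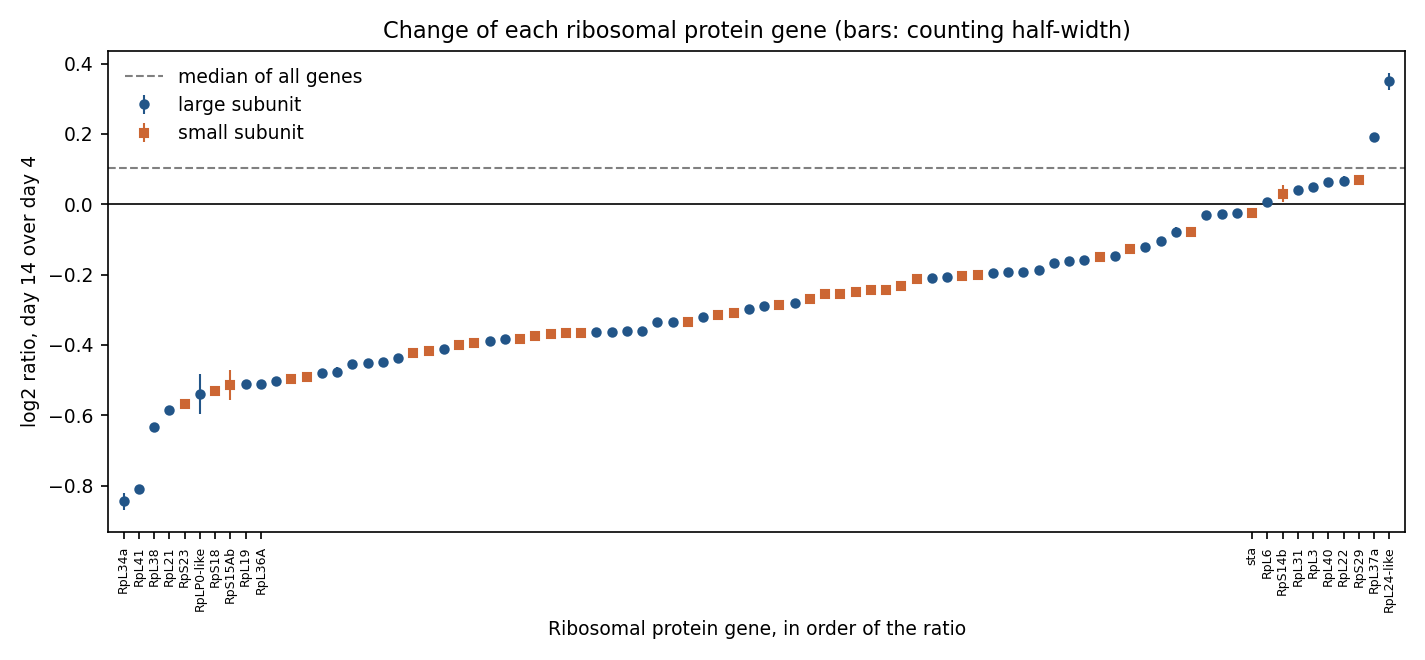
log2 ratio of day 14 over day 4 (y axis) of the 84 RP genes in order of the ratio (x axis, the 10 at each end named), circles for the large and squares for the small subunit, with bars for the 95% counting half-width. The dashed line is the median of all genes, 0.10, and only *RpL37a* and *RpL24-like* lie above it.

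The early steps were small. On day 5 over day 4 the RP genes had a median log2 ratio of -0.01 and 47 were lower, against 37.3% of all genes. On day 8 over day 5 the median was -0.02 and 52 were lower, against 48.9% of all genes. On day 14 over day 8 the median was -0.24 and 79 were lower, against 43.2% of all genes. Of the 49 other genes at 10 or more per 10000, 16.3%, 59.2% and 63.3% were lower over these steps in order. 73 of the 84 had their lowest level on day 14, against 37.5% of all genes. A lower level at each later age was found for 29 genes, against 13.3% of all genes. A higher level at each later age was found for 2, *RpL37a* and *RpS29*, against 27.6% of all genes.

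The largest differences belonged to large-subunit genes, led by a copy of a gene pair and by the smallest ribosomal protein. *RpL34a* had a level of 13.3, 12.6, 9.95 and 7.38 per 10000 on days 4, 5, 8 and 14, which gives a ratio of -0.85 log2 units between day 14 and day 4. *RpL41* encodes a peptide of the large subunit with the shortest coding sequence in the set, 75 bases in the annotation. Its level was 129, 114, 106 and 73.5, lower at each later age, with a log2 ratio of -0.81. On day 4 it gave more UMIs than any other RP gene, and on day 14 *RpL27A* (101), *RpS29* (94.6), *RpLP2* (87.0), *RpL37a* (85.8), *RpS25* (79.9), *RpS26* (77.0) and *RpLP1* (75.6) were above it.

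*RpL38* followed another course. Its level was 59.4, 44.8, 40.9 and 38.3, and most of its difference lay between the first 2 ages (log2 ratio of day 5 over day 4 -0.41, of day 14 over day 4 -0.63). In mice its loss alters the translation of *Hox* messages. *RpL21* had levels of 69.9, 69.4, 61.9 and 46.6 and a log2 ratio of -0.59, with little difference before day 8. *RpS23*, a small-subunit protein of the decoding centre, had levels of 55.6, 51.7, 50.2 and 37.5 and a log2 ratio of -0.57. These 5 were lower at each later age, and each was lower on day 14 under every alternative way of computing the ratio of day 14 over day 4 that was tried.

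On day 14, 9 genes had a higher level than on day 4. *RpL24-like* had levels of 5.84, 5.54, 6.13 and 7.44, a log2 ratio of 0.35. It is the fly relative of yeast Rlp24, an assembly factor that holds the place of a ribosomal protein on the maturing large subunit. *RpL37a*, which is *RpL37-1* in the current annotation and a different gene from *RpL37A*, had levels of 75.1, 76.4, 81.0 and 85.8, a log2 ratio of 0.19. *RpS29*, a small zinc-binding protein of the small subunit, had levels of 90.1, 90.7, 92.5 and 94.6, a log2 ratio of 0.07. *RpL22* had levels of 21.5, 16.5, 19.2 and 22.5, so that its lowest value was on day 5 and its day 14 level exceeded that of day 4 by 0.07 log2 units. The other 5 were *RpL40* (0.06), *RpL3* (0.05), *RpL31* (0.04), *RpS14b* (0.03) and *RpL6* (0.01), and the last did not exceed its counting half-width. With RP UMIs left out of the scaling, 8 of the 9 were lower on day 14, down to -0.25 for *RpL6*, and *RpL24-like* alone stayed higher, at 0.07. Their higher level thus held per total UMIs of a cell and, apart from *RpL24-like*, not per UMIs of other genes. Set against the RP UMIs alone, *RpL37a* made up 2.07% of them on day 14 and 1.49% on day 4, and *RpL41* made up 1.76% on day 14 and 2.57% on day 4.

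**Figure D3:**
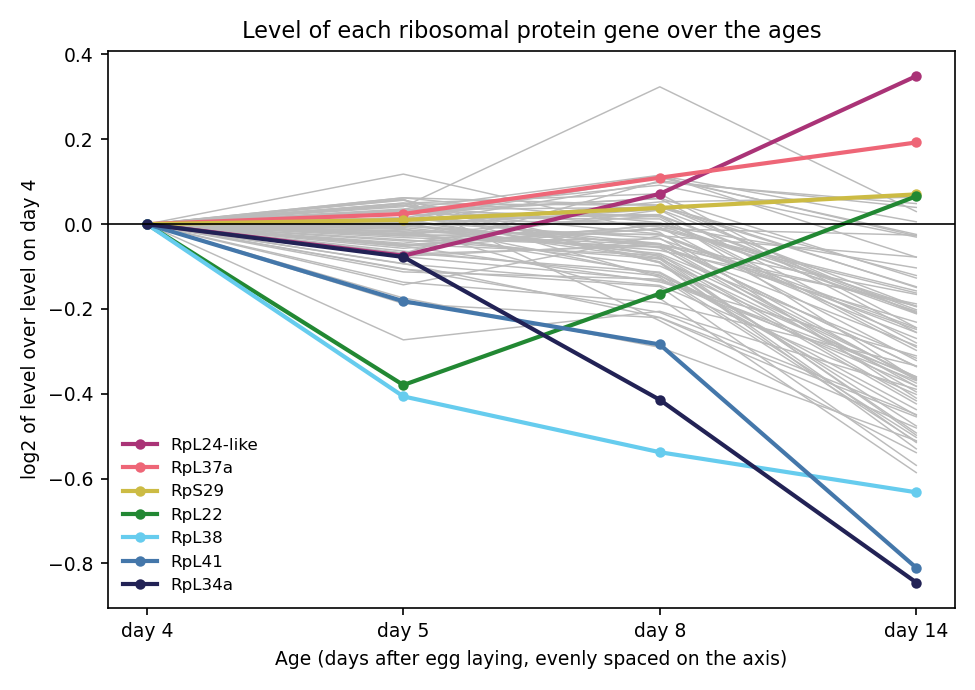
log2 of the level of each of the 84 RP genes over its own level on day 4 (y axis) at the 4 ages (x axis, evenly spaced), 7 genes in colour and the rest in grey. Most lines stay near 0 to day 8 and drop on day 14, *RpL38* and *RpL22* differ most from day 4 by day 5, and *RpL37a* and *RpS29* are higher at each later age.

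The genes that join ubiquitin to a ribosomal protein did not go together. Both encode a fusion that is cut into free ubiquitin and a ribosomal protein. *RpL40* had levels of 62.3, 62.1, 64.6 and 65.1 on days 4, 5, 8 and 14. *RpS27A* had levels of 88.2, 88.3, 83.3 and 62.7, a log2 ratio of -0.49. Both stayed close to their day 4 levels up to day 8, and they had parted by day 14.

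The P-stalk, the flexible arm of the large subunit that recruits the elongation factors, is built on *RpLP0* and carries *RpLP1* and *RpLP2*. *RpLP0* had levels of 40.6, 40.5, 41.6 and 35.5, *RpLP1* of 104, 97.1, 88.9 and 75.6, and *RpLP2* of 110, 109, 106 and 87.0. Their log2 ratios of day 14 over day 4 were -0.19, -0.45 and -0.34, and *RpLP1* was the furthest below its day 4 level by day 8. *RpLP0-like*, the relative of the yeast assembly factor Mrt4, had levels of 1.87, 1.94, 1.59 and 1.28, a log2 ratio of -0.54. *sta* had levels of 64.2, 64.6, 69.2 and 63.1, and differed between day 14 and day 4 by a log2 ratio of -0.02.

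Several RP genes have a second copy, and the balance within a pair shifted in some. The copies are similar in sequence, and how shared reads were assigned was not given in the sources used here, so these shares are uncertain. *RpL34b* made up 78.1%, 78.9%, 82.5% and 85.4% of the UMIs of *RpL34a* and *RpL34b* on days 4, 5, 8 and 14. *RpS14b* made up 16.6%, 16.7%, 20.6% and 21.3% of its pair with *RpS14a*, and its level was 7.63, 7.85, 9.55 and 7.79. *RpS15Ab* stayed between 6.84% and 7.14% of its pair with *RpS15Aa*. In the first pair the copies differed in their log2 ratio of day 14 over day 4 by 0.65 (95% counting half-width 0.026), in the second by 0.45 (0.027), and in the third by -0.02 (0.045). *RpL24-like* is an assembly factor and not a copy in function, and its UMIs were 14.1% of those of *RpL24* and *RpL24-like* together on day 14 and 9.32% on day 4.

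3 members were under the minimum level. *RpS5b*, *RpS19b* and *RpL22-like* are known as germline-enriched copies of *RpS5a*, *RpS19a* and *RpL22*. They made up at most 0.117% of the UMIs of their pair in any library, and a UMI of them was found in between 2.43% and 8.98% of cells. No cell type that should lack them was set apart here, so these shares could not be read against a background of free RNA. *RpS19b* had 28 UMIs in 27 cells on day 14 and 474 UMIs in 340 cells on day 4. *RpL22-like* had 42 UMIs in 38 cells on day 14 and 163 UMIs in 148 cells on day 4. Of the 412 *RpS5b* UMIs on day 4, 54 came from 1 cell, which had 0 UMIs of the germline genes *vas* and *aub*. *RpS10a* begins like the others but was listed on day 4 only, with 16 UMIs in 15 cells, and is not among the 87.

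Between day 14 and day 4 the change went with transcript length, to an extent that depended on the genes and ages compared. Over the 84 RP genes Pearson's r between the log2 of the median annotated transcript length and the change between day 14 and day 4 was 0.38 (Spearman's rho 0.32). Over 1975 other genes it was 0.46 (0.59), longer transcripts being higher on day 14, and over the 49 other genes at 10 or more per 10000 it was 0.17 (0.29). For day 14 over day 8 it was 0.19 (0.15) over the RP genes and 0.48 (0.61) over the 1975 others. These are correlations across genes, which are not independent, and the points share the same 2 libraries. RP transcripts ran from 288 to 1512 nucleotides. The 981 other genes within that range had a median log2 ratio of -0.18 and 62.0% of them were lower on day 14, where 89.3% of the RP genes were. The 993 other genes with longer transcripts had a median of 0.46. The members named -like were then left out and the other 82 ordered by length. Among the RP genes with the shortest transcripts (21 genes, 288 to 613 nucleotides) the median was -0.36, and among the 149 other genes of the same lengths it was -0.47. Among those with the longest (20 genes, 910 to 1512 nucleotides) it was -0.17 with 16 genes lower, and among the 538 other genes of those lengths it was 0.02 with 48.7% lower. RP genes thus had the lower median at the longest lengths and the higher one at the shortest. What length stands for in these libraries was not tested.

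**Figure D4:**
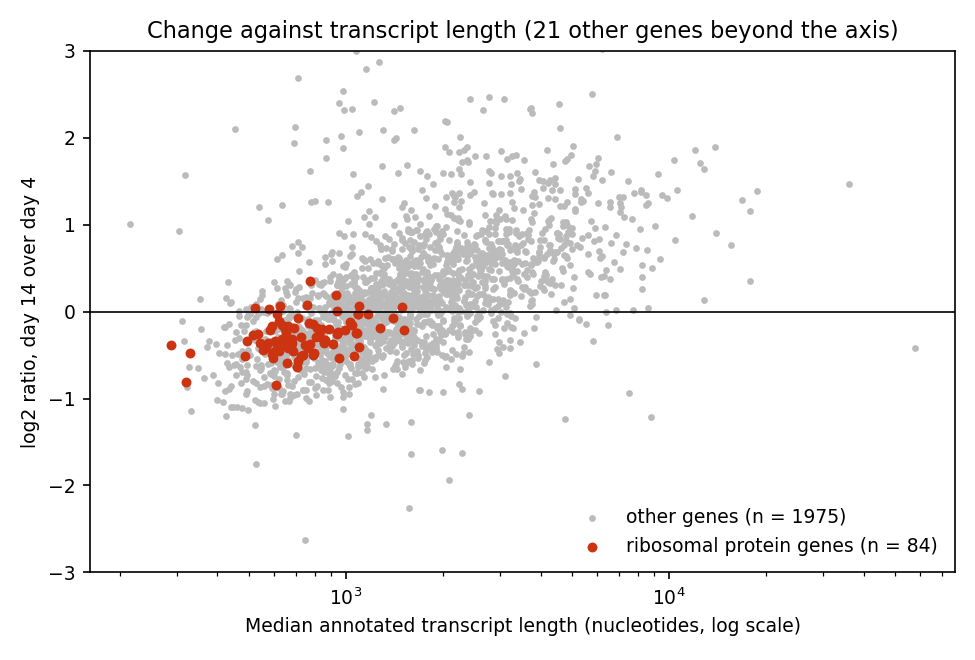
log2 ratio of day 14 over day 4 (y axis, 21 other genes lying beyond it) against the median annotated transcript length in nucleotides (x axis, log scale), grey for 1975 other genes and red for 84 RP genes. The red points lie among the other short transcripts, and the cloud rises with length.

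Position in the genome divided the RP genes less than their spread. The median log2 ratio was -0.30 for 17 genes on chromosome arm 2L, -0.40 for 19 on 2R, -0.25 for 14 on 3L, -0.20 for 18 on 3R and -0.36 for 15 on X, with *RpS3A* on chromosome 4 at -0.37. In the Ensembl annotation of BDGP6, *RpL34a* lies on the minus strand of chromosome 3R from 26058420 to 26059267 and *RpL41* on the minus strand of 2R from 24903416 to 24903935. *RpL37a* lies on the minus strand of X from 15137870 to 15139367 and *RpL24-like* on the minus strand of 3R from 11430740 to 11431582. The last overlaps *Dtd* on the other strand, and 26 of the 87 overlap a gene on the other strand. Use of strand in the counting was not given in the sources used here, so UMIs of such pairs may be mixed. The same is true of the build of these libraries.

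Between cells the RP genes mostly moved together. Across the cells of a library the level of an RP gene correlated with the RP share of the cell with a median r of 0.69, 0.68, 0.62 and 0.69 on days 4, 5, 8 and 14, which holds a part from the gene's own UMIs. On day 14 the genes that were higher at that age tracked the share less. *RpL37a* had an r of 0.17 on day 14 and 0.71 on day 4, *RpL24-like* of -0.11 on day 14 and 0.47 on day 4, and *RpS29* of 0.38 on day 14 and 0.72 on day 4. *RpL41* differed from these, with 0.75 on day 14 and 0.67 on day 4.

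How far a gene's part of the RP UMIs varied between cells was measured as a coefficient of variation (CV) beyond that of binomial counting. Among the steadiest genes were *RpL18* (mean over the 4 libraries 4.14%) and *RpS15* (4.22%). The most variable were *RpLP0-like* (45.7%), *RpS15Ab* (30.8%), *RpS14b* (28.5%), *RpL24-like* (24.5%) and *RpL34a* (23.7%), which are 2 assembly factors and 3 members of copy pairs. They also have low levels, and a subtraction of counting error is least certain there. The median over the 84 genes was 6.27, 6.41, 7.25 and 9.25% at the 4 ages, and 75 of the 84 had a larger excess CV on day 14 than on day 4. *RpL41* had 19.1% on day 14 and 7.96% on day 4, and *RpL37a* had 17.8% on day 14 and 8.96% on day 4.

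Pairs of RP genes, compared by their parts of the RP UMIs across cells, showed which deviated together. Over the 3160 pairs of the 80 genes at 10 or more per 10000 the median r was -0.01 in each library, a value near 0 being almost forced on parts of a whole. *RpL5*, which binds 5S ribosomal RNA, and *RpL15* had the highest mean, with r of 0.53, 0.44, 0.41 and 0.53 on days 4, 5, 8 and 14. *RpL34a* and *RpL41* went together with r of 0.36, 0.25, 0.37 and 0.51. *RpL3*, at the peptidyl transferase centre, and *RpL41* were opposed, with r of -0.37, -0.35, -0.41 and -0.54. *RpL37a* and *RpL41* had r of -0.14, -0.07, -0.31 and -0.58. *RpL37a* and *RpS29* had r of 0.19, 0.20, 0.53 and 0.49. These pairs were chosen after their values were seen, and the r values share libraries and depth.

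The RP share differed between cell clusters that were made without any RP gene. Clusters held 34.9%, 45.2%, 32.7% and 23.4% of the variance of the share on days 4, 5, 8 and 14. In each library the cluster with the highest mean share was the myoblast-like one, led by *SPARC*, which encodes an extracellular matrix protein. Its mean was 56.0% (163 cells), 53.5% (397), 53.8% (212) and 46.1% (42), and on day 5 a cluster led by *magu* had the same mean to 3 digits (1224 cells). Clusters with *CG12911* among their 3 leading genes were lowest on days 4, 5 and 8 at 44.9% (583 cells), 42.5% (915) and 42.5% (415), and had 39.1% (168) on day 14. On day 14 the clusters led by *bnl*, the fly FGF ligand Branchless (28 cells, 35.6%), and by *CG2444* (26 cells, 36.4%) were lower still. Median UMIs other than RP also differed between these clusters, with 6905 in the myoblast-like and 16051 in the *CG12911* cluster on day 4, and their part in the result was not tested.

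**Figure D5:**
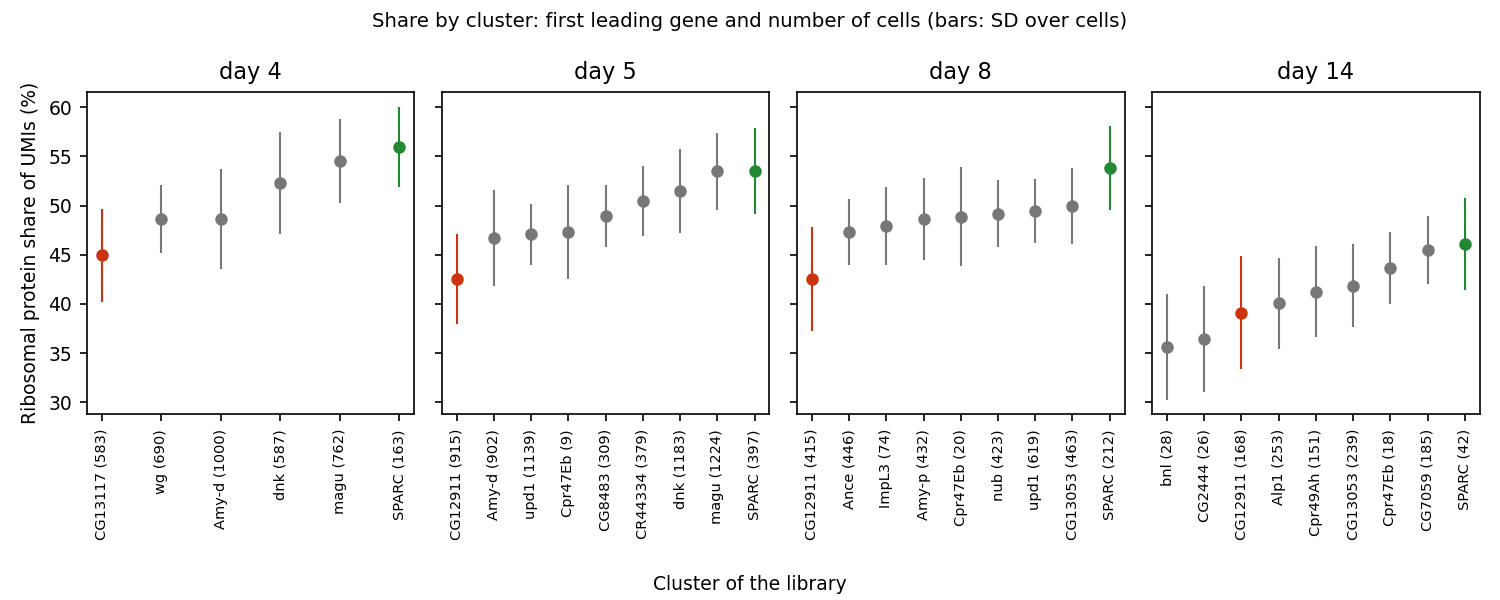
Mean RP share of UMIs (y axis, %) of each cluster of each library, with bars for the SD over cells and the first leading gene and the number of cells on the x axis. Green marks the myoblast-like cluster, at the top on all 4 ages, and red the cluster with *CG12911* among its leading genes.

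The lower share on day 14 was found inside these classes. In the myoblast-like cells it was 46.1% ± 4.67 on day 14 and 56.0% ± 4.10 on day 4 (SD over cells), a difference of -9.82 percentage points, and 78 of 84 RP genes were lower, against 32.2% of all genes in those cells. In the *CG12911* clusters it was 39.1% ± 5.77 on day 14 and 44.9% ± 4.73 on day 4, a difference of -5.83 points, and 67 were lower, against 48.7% of all genes. In all other cells it was 41.7% ± 4.94 on day 14 and 50.8% ± 5.24 on day 4, a difference of -9.13 points, and 76 were lower, against 42.1% of all genes. *RpL41* was lower in all 3, with log2 ratios of -0.81, -0.88 and -0.80. *RpL37a* was higher in the *CG12911* clusters (0.34) and in all other cells (0.18). In the myoblast-like cells, 42 on day 14, its ratio was 0.03, too small to call higher without a counting half-width, which was not computed. *RpS29* differed in sign between the classes, with -0.07 in the myoblast-like cells, 0.26 in the *CG12911* clusters and 0.05 elsewhere.

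Within the RP UMIs the classes were mostly close. On day 14 the part of 79 of 84 genes in myoblast-like cells lay within 0.1 log2 units of that in other cells, and on day 4 that of 68. For the *CG12911* clusters it was 66 genes on day 14 and 79 on day 4. *RpS6*, the target of S6 kinase, was higher in myoblast-like cells at every age, with log2 ratios of 0.23, 0.21, 0.16 and 0.12 against other cells. Its counting half-width on day 14 was 0.065. *RpS15Ab* was lower in the *CG12911* clusters at every age, with log2 ratios of -0.38, -0.54, -0.94 and -0.56 against other cells. It was not alone, as *RpLP0-like* was also lower at every age (-0.32, -0.36, -0.64 and -0.56). Smaller differences at every age were found for others, among them *RpL22* (-0.12, -0.12, -0.21 and -0.16) and *RpS2* (-0.08, -0.09, -0.24 and -0.21). *RpL24-like* on day 4 and *RpLP0-like* on day 14 were as low as *RpS15Ab* within their counting half-widths. *RpL24-like* was higher in the *CG12911* clusters on day 14 (0.37) and lower in them on day 4 (-0.38).

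Cells with *Mmp1*, a matrix metalloprotease gene and target of JNK signaling, had a lower RP share. Cells at 5 or more *Mmp1* UMIs per 10000 had a mean share of 43.8%, 42.0%, 40.9% and 40.2% on days 4, 5, 8 and 14, and all other cells 50.6%, 49.7%, 48.6% and 41.5%. The difference was -6.76, -7.65, -7.74 and -1.28 percentage points, and 37 cells passed on day 14. A threshold per 10000 UMIs of a cell counts RP UMIs in the total, so a cell with a lower RP share passes it more easily. Across cells, *Mmp1* had an r with RP share of -0.42, -0.48, -0.36 and -0.14 on days 4, 5, 8 and 14. The *Mmp1* cells also had more UMIs, with medians of 28440 in *Mmp1* cells and 23028.5 in others on day 4, and their part in the result was not tested.

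Other genes of translation were scaled on the UMIs of non-RP genes and compared with the RP share across cells. Of 5598 genes, those with the highest mean r over the libraries were *Rack1* (0.77), which encodes a scaffold protein bound to the small subunit, *eEF5* (0.73), the fly eIF5A, and *eEF1gamma* (0.60). Next were *bic* (0.58), a subunit of the complex that binds nascent chains, and *Tctp* (0.57). *Rack1* had r of 0.76, 0.75, 0.75 and 0.82 on days 4, 5, 8 and 14. *eEF1alpha1* had 0.79, 0.72, 0.55 and 0.17, *eIF4A* 0.66, 0.57, 0.41 and 0.02, and *Non1* 0.72, 0.66, 0.41 and -0.04, so these 3 tracked the share in young discs and hardly on day 14. The most negative included genes of the cytoskeleton, such as *Act42A* at -0.60, -0.66, -0.57 and -0.003. *GstD1*, a gene of oxidative stress, had -0.56, -0.58, -0.40 and -0.24. On day 14 the cytoskeletal genes were mixed, with *alphaTub84B* at 0.09, *tsr* at 0.05 and *Act5C* at 0.007. On the other side *cib* had -0.32, *zip* -0.27, *chic* -0.19 and *Tm1* -0.19. These r values are descriptions, and share the depth of the cell.

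The genes *eEF1alpha1*, *eIF4A* and *Non1* were also higher in level on day 14, though not alone among the genes of translation. *eEF1alpha1*, which brings aminoacyl-tRNA to the ribosome, had levels of 117, 118, 134 and 173, a log2 ratio of day 14 over day 4 of 0.57 (0.30 with RP UMIs left out of the scaling), and was the only 1 of 6 elongation factors tested that was higher (list median -0.27). *eEF5* had 41.3, 42.0, 39.0 and 28.3, a log2 ratio of -0.54. *eIF4A*, the helicase of initiation, had levels of 26.7, 27.2, 37.5 and 52.6, a log2 ratio of 0.98. Of the 24 initiation factors tested 17 were higher, against 1187 of all 2064 genes, with a list median of 0.05. With RP UMIs left out that list turned, with 21 lower, against 58.6% of all genes, and a median of -0.19. *eIF4A* stayed higher at 0.71. Another initiation factor, *eIF3m*, had a log2 ratio of 0.72, or 0.46 with RP UMIs left out. *Non1*, the relative of the yeast assembly GTPase Nog1, had levels of 6.51, 5.92, 7.68 and 13.7, a log2 ratio of 1.08, while 13 of 15 ribosome biogenesis genes tested were lower (list median -0.35), down to -0.88 for *hoip*, which encodes a box C/D snoRNP protein. All genes had a median of 0.10, and 42.5% of them were lower.

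Of 4 ribosome-associated factors tested, 3 were lower on day 14, against 42.5% of all genes, with a list median of -0.37. *Rack1* had levels of 36.4, 37.9, 36.7 and 28.4, a log2 ratio of -0.36. *Nacalpha* and *bic*, the subunits of the nascent chain complex, had log2 ratios of -0.61 and -0.38, and *Tctp* of 0.04, or -0.20 with RP UMIs left out. Genes for the mitochondrial ribosome were lower by more than those of the cytosolic one. Of 72 listed, 50 passed the minimum level and 48 of these were lower on day 14, against 42.5% of all genes. Their median log2 ratio to day 4 was -0.63. They ran from -1.09 (*mRpL20*) to 0.33 (*mRpL28*).

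Most tested genes of a list for growth control and the response to RP loss were higher on day 14. Of 7 tested in this list of 11, 6 were higher by at least 0.32 log2 units, against 36.9% of all genes, with a median log2 ratio of 0.98. With RP UMIs left out of the scaling the list median was 0.71 and that of all genes -0.12. *M1BP*, at 0.34 before, was then higher by only 0.13. *REPTOR* was the only 1 of the 7 that was lower, at -0.18, or -0.45 with RP UMIs left out. *Thor*, the translational inhibitor 4E-BP, had levels of 0.826, 0.934, 1.95 and 5.31, a log2 ratio of 2.69. *Xrp1*, a transcription factor that acts in *Minute* cells, had levels of 1.60, 1.89, 2.64 and 4.72, a log2 ratio of 1.56. *Myc*, which drives ribosome production in flies, had levels of 2.99, 2.45, 3.24 and 5.87, a log2 ratio of 0.98. *Trf2*, a core promoter factor of RP genes in *Drosophila*, had levels of 0.715, 0.826, 0.984 and 1.65, higher at each later age. Across cells, *Xrp1* had an r with RP share of 0.05, 0.14, 0.00 and -0.33 on days 4, 5, 8 and 14, and *Thor* of 0.41, 0.32, 0.14 and -0.21, so that both were negative on day 14 alone.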

How the data were processed

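The authors counted UMIs of the 4 libraries with Cell Ranger and normalised them in Seurat. As deposited, a value is the natural log of 1 + UMIs per 10000 UMIs of its cell. The Cell Ranger version, the build and the cell filters were not given in the sources used here. UMIs were recovered by dividing each cell's linear values by the lowest above 0, and 100% of the quotients were within 0.001 of a whole number. No column of per-sample values was left unused.

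Libraries were grouped by the labelled age. Genes and gene lists were chosen with earlier results of these data known. The genes named were the 5 lowest and 5 highest log2 ratios, all those higher on day 14, the 5 highest levels, the 5 largest and 5 smallest excess CVs, copy pairs, ubiquitin fusions, the P-stalk, *sta*, members named -like and the listed genes of the translation lists. Some genes under this rule are not reported here. Pairs across cells, genes that tracked the share, the *Mmp1* cells and the *CG12911* clusters were chosen after their values were seen. Intervals were exact binomial at 95% and half-widths came from a normal approximation on UMI sums, both covering counting error only.

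Cells of each library were clustered without RP genes with scanpy 1.11.5 (2000 variable genes, 30 components, 15 neighbours, Leiden resolution 0.5). No doublet caller was run, and the 5% of cells with most UMIs were left out as an alternative. 86 symbols matched the Ensembl annotation of BDGP6 directly and 1 through a synonym. The steps were tested on simulated data.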

Additional observations from a re-analysis of the deposited data

How the results depend on the processing

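No paired analysis was possible because each age had 1 library. The direction of the RP share and of the median log2 ratio of RP genes was kept under every alternative tried. The day 14 minus day 4 difference in share, -8.67 percentage points, was -7.94 with medians, -8.05 in cells with at least 15000 UMIs, -8.92 without the 5% of cells with most UMIs, -8.59 outside the myoblast-like cluster and -8.61 over genes listed in all libraries. Day 8 minus day 5 it was -0.66. The SD over cells on day 14 was 0.921 times that on day 4. That ratio was 0.829 with interquartile ranges, 0.868 for day 8 over day 5, 0.983, 0.932, 0.923 and 0.917 under the next 4 settings in the order above, and 0.923 without the members named -like.

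The count of genes lower on day 14, 75, stayed between 73 and 77 except for 83 with RP UMIs left out of the scaling and 52 for day 8 over day 5. The count lower by at least 0.32 log2 units, 38, was 71 with RP UMIs left out and 1 for day 8 over day 5, and the count higher by as much, 1, was 0 in both. The median log2 ratio, -0.29, was -0.54 with RP UMIs left out, -0.26 on pooled UMIs, -0.30 on log values, -0.024 for day 8 over day 5, -0.28 at 15000 UMIs, -0.30 without the deepest cells and -0.30 with no minimum level. The interquartile range, 0.25, was in the same order 0.24, 0.26, 0.26, 0.11, 0.26, 0.25 and 0.26, and 0.24 at a minimum of 5 per 10000. Leaving out cells with a shared barcode, an alternative chosen after seeing the data, gave 39 genes lower by at least 0.32 log2 units. Of 112 values of 14 single genes under these alternatives 103 kept their sign, and the other 9 were of genes higher on day 14 by less than 0.32 log2 units. With 1 library per age neither the age nor any gene's change has a replicate error.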
